A study of Mus musculus with 32 samples.

Results

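The 7 genes described here act on methylated cytosine once it has been set. Dnmt1 and Uhrf1 copy the mark at each cell division, Tet1 and Tet2 oxidise it, and Parp1, Apex1 and Xrcc1 belong to the repair of excised bases. They were taken by name from the 18193 genes that the array annotation assigns to a probe set with 1 gene symbol, and the probe set of each gene with the highest mean over all arrays stood for the gene. All 7 were measured, by 19 probe sets between them, and all 7 were among the 15497 genes tested.

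As background, replication leaves cytosine methylation on the old DNA strand only. UHRF1 recognises such half-methylated sites and recruits DNMT1, which methylates the new strand, so a cell short of either loses methylation passively as it divides. TET enzymes turn 5-methylcytosine into 5-hydroxymethylcytosine and further products, which can be diluted by replication or cut out by a glycosylase and replaced through base excision repair. Mouse primordial germ cells (PGCs), the embryonic precursors of eggs and sperm, erase most of their DNA methylation, and both routes have been studied in them.

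RNA levels were measured on 32 single-colour Affymetrix arrays, 2 for each of 16 groups. The 22 newly submitted arrays held male cells of a mixed C57BL/6 and 129 background, and all of these cells carried the Blimp1-mVenus and stella-ECFP reporters and the doxycycline-controlled activator rtTA at Rosa26. PGC-like cells (PGCLCs) were made from epiblast-like cells (EpiLCs) of 36 h by aggregation. In TF-PGCLCs doxycycline at 1.5 μg/ml switched on tetO-driven piggyBac transgenes: Blimp1, Prdm14 and Tfap2c (BP14A, days 2 and 4), Blimp1 and Prdm14 (BP14, day 2), Prdm14 and Tfap2c (P14A, day 2), or Prdm14 alone (P14, day 2). Ck-PGCLCs of days 2 and 4 came from the parental clone, which has no factor transgene, with BMP4, BMP8A, SCF, LIF and EGF. Their references were the parental clone with doxycycline at day 2 and parental EpiLCs of 36 h. BP14A embryonic stem cells (ESCs) given doxycycline for 2 days and sorted for stella-ECFP were set against BP14A ESCs in 2i and LIF medium. The 10 earlier arrays, which the submitters re-analysed, held C57BL/6 cells: Ck-PGCLCs of day 6, PGCs of embryonic day 9.5 with a stella-EGFP reporter, EpiLCs of 48 h, the epiblast of embryonic day 5.5, and ESCs in 2i and LIF medium. The cultured earlier cells were male with Blimp1-mVenus and stella-ECFP, and the sex of the PGCs and epiblast is labelled unknown. The factor lines and the parental clone are different cell lines, so clone and factors cannot be told apart. No sort is named for the PGCLCs, and no label names separate cultures beyond the term biological duplicates, so the p-values reflect only how far these arrays differ, which may partly be technical.

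The deposited log2 values had medians of 4.62 to 4.78 per array, and the arrays of a group correlated at 0.966 to 0.986 over the tested genes. On 6 arrays the Gapdh control probe sets differed by more than 2.5 on the log2 scale between the 5′ and 3′ transcript ends. Such a difference can be a sign of shortened or partly copied RNA. These were both BP14A arrays of day 4, replicate 1 of BP14, of EpiLCs of 36 h and of BP14A ESCs, and replicate 2 of BP14A ESCs with doxycycline. The actin control probe sets did not single out these 6 arrays. Their difference was smallest, -1.74, on replicate 2 of BP14A ESCs with doxycycline, which is among the 6. The actin difference was largest, -3.69, on replicate 1 of Ck-PGCLCs of day 6, which is not among the 6 either. The flag thus rests on Gapdh alone, and whether RNA was shortened was not tested further. All 6 early germ cell markers (Prdm1, Prdm14, Tfap2c, Dppa3, Kit, Dnd1) were at least 2-fold higher, at an adjusted p under 0.05, in Ck-PGCLCs of days 2 and 4 and in BP14A cells of day 2 than in EpiLCs of 36 h, in Ck-PGCLCs of day 6 than in EpiLCs of 48 h, and in PGCs than in epiblast. In BP14A cells doxycycline drove transgenes of Blimp1 (Prdm1), Prdm14 and Tfap2c, so the rise of these markers there is no independent sign of germ cell identity. Whether their probe sets also detect transgene RNA was not tested. The PGC arrays also carried embryonic globin RNA: Hbb-y stood at 12.50 and 11.34 and Hba-x at 12.56 and 11.44 in PGCs, while no other array exceeded 3.79 for Hbb-y or 4.98 for Hba-x.

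The 7 genes moved very unequally. Between the lowest and the highest of the 16 group means Uhrf1 spanned 3.69 on the log2 scale, more than 91.5% of all tested genes, and Tet1 spanned 2.18. Tet2 (1.33) and Parp1 (1.31) lay close to the median of all tested genes, 1.37. Xrcc1 (0.97) and Dnmt1 (0.80) spanned less, and Apex1 spanned 0.35, a range narrower than that of all but 0.697% of tested genes. These spans cross the earlier and the newly submitted arrays. All Tet2 means of the earlier groups (7.64 to 8.30) lay below all those of the new groups (8.32 to 8.97). Within the earlier groups Tet2 spanned 0.66 and Parp1 0.585, and within the new groups 0.65 and 0.979. Between the sets of arrays, set, strain and cell type cannot be told apart. Over the 26 comparisons between groups, a gene was called when its adjusted p was under 0.05 and its difference at least 2-fold. Tet1 was called 6 times higher and 2 times lower and Uhrf1 3 times lower. The other 5 genes were never called at 2-fold, but Parp1 passed the adjusted p 6 times, Dnmt1 5 times and Tet2 once with smaller differences. Apex1 and Xrcc1 passed in 0 of the 26 by limma, with 2 and 3 unadjusted p-values under 0.05.

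**Figure D1:**
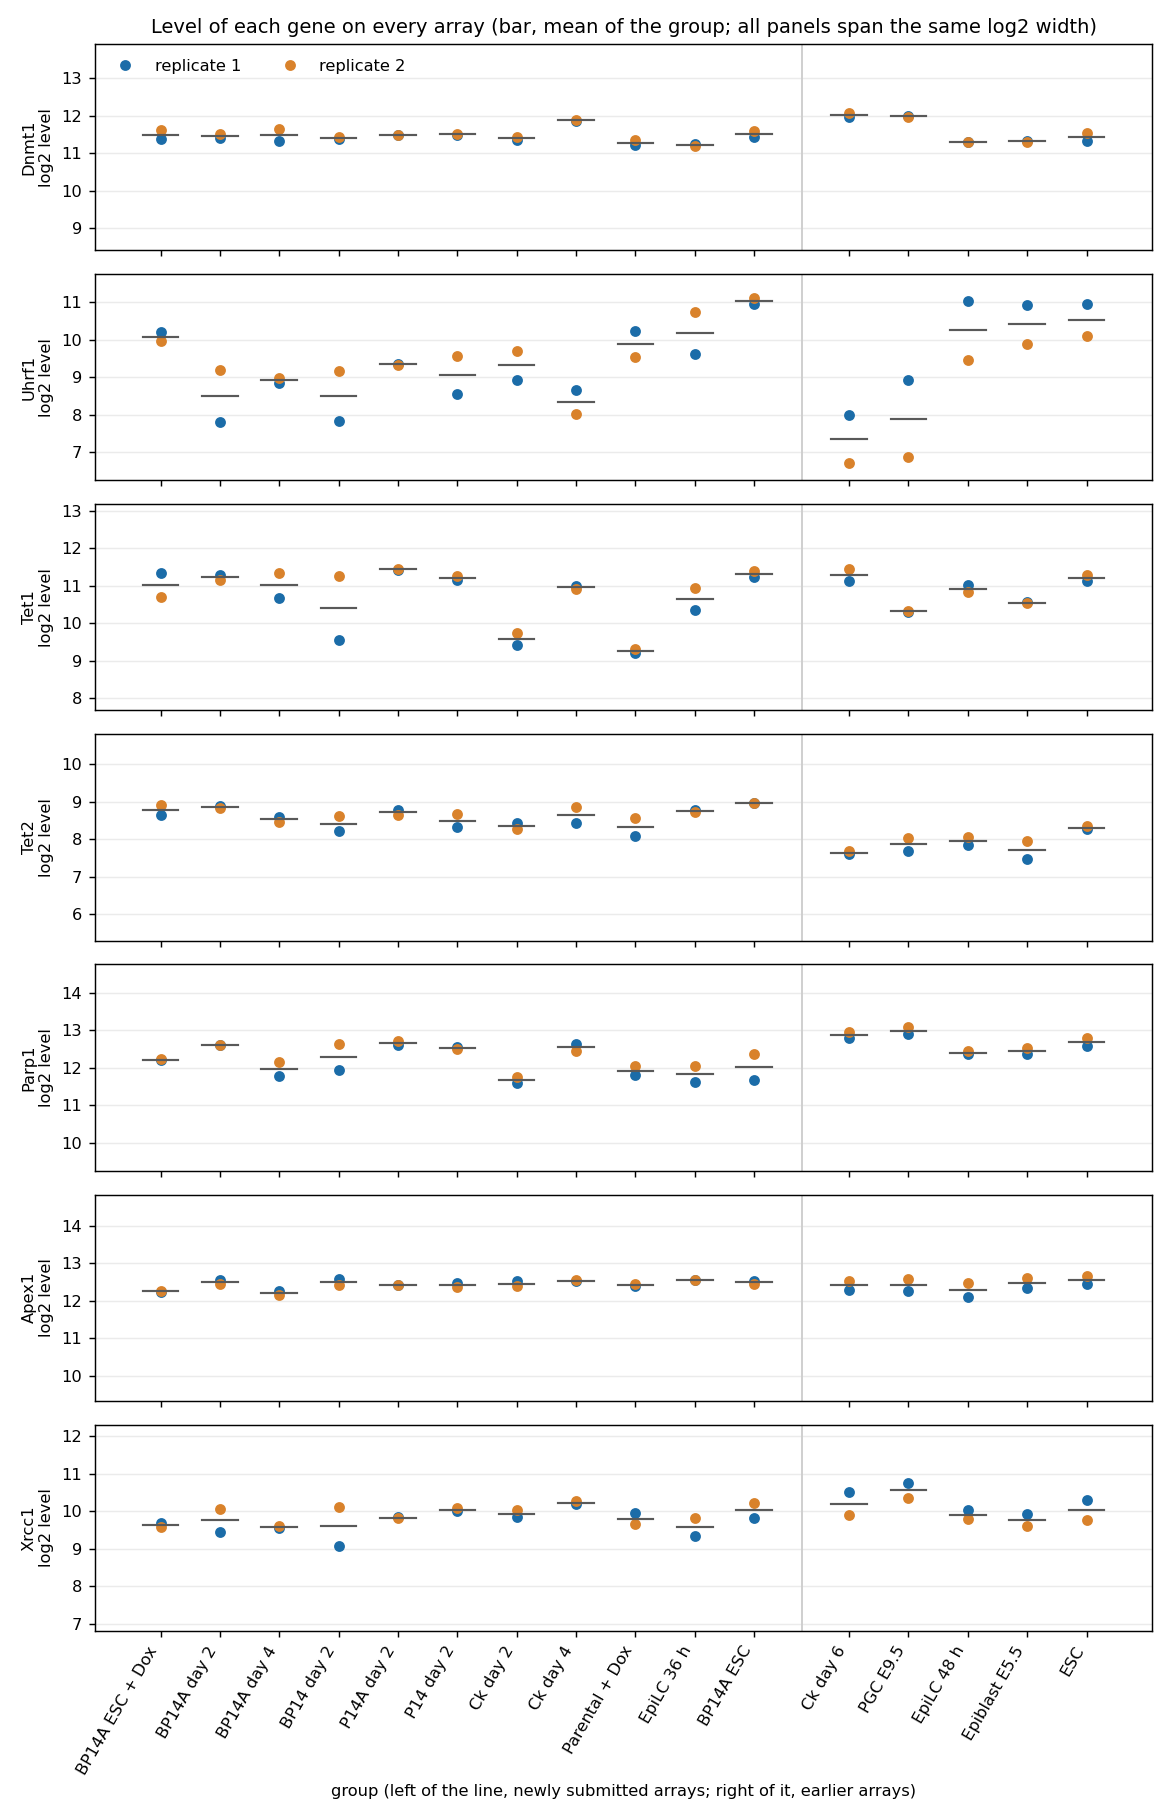
Log2 level (y axis) of the 7 genes on each of the 32 arrays, by group (x axis); points are arrays coloured by replicate number, and bars are group means. Uhrf1 is lowest in Ck-PGCLCs of day 6 and PGCs, Tet1 in the parental clone with doxycycline and in Ck-PGCLCs of day 2, and Apex1 stays within 0.35 between group means.

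**Figure D2:**
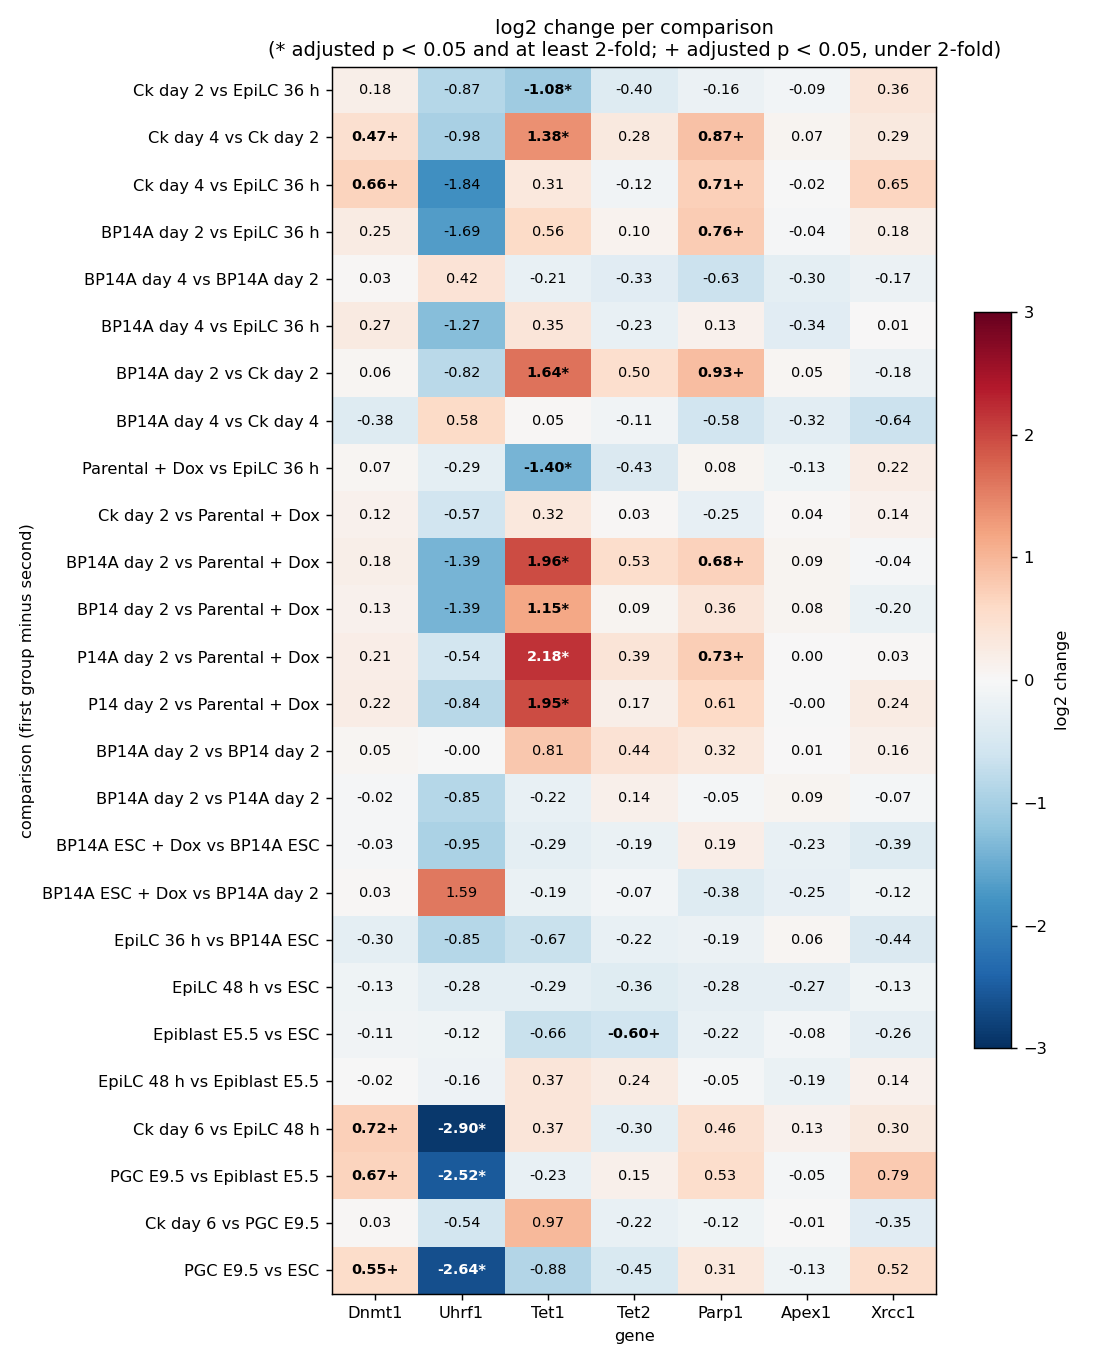
Log2 change (colour and number) of the 7 genes (x axis) in the 26 comparisons (y axis, first group minus second). Stars mark the 11 called changes, all of Uhrf1 or Tet1, and plus signs mark the 12 changes that passed the adjusted p under 2-fold.

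Uhrf1 and Dnmt1, the partners of maintenance methylation, went opposite ways in germ cells. Their promoters are shown because they share an E2F string while their RNA differs. In each gene 1 of the RefSeq promoter windows (250 bases before to 50 after a gene start, GRCm38.p6) holds the E2F string TTTCGCGC on one of its strands. E2F factors control genes of the G1 to S transition. Capitals mark matches to any of 3 E2F strings searched on both strands (TTTCGCGC, TTTGGCGC and TTTCCCGC); the matches do not overlap each other, and each sequence runs 5′ to 3′ on the gene's own strand.
Uhrf1 (chr17:56304063-56304362, plus strand): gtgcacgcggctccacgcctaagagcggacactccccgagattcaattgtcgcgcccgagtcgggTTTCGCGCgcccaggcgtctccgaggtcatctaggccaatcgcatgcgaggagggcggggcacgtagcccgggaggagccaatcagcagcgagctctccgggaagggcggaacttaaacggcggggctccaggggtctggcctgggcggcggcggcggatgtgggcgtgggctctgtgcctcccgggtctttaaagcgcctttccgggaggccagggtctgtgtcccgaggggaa
Dnmt1 (chr9:20952574-20952873, minus strand): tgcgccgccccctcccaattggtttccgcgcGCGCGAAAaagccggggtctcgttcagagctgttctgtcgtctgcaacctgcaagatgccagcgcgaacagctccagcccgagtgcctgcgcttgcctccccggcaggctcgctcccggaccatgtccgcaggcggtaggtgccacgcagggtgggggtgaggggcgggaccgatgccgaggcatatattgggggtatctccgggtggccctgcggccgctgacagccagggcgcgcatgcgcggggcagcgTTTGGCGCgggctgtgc
The match in Uhrf1 begins at base -185 from the gene start. In Dnmt1 the matches begin at base -219, where TTTCGCGC lies on the opposite strand, and at base 33, where the letters are TTTGGCGC. TTTCGCGC is in 0.323% of all 32851 RefSeq promoter windows of this length and any of the 3 strings is in 1.84%. The other 8 windows of the 7 genes, which have 10 in all, hold none of them. Each of the 2 windows shown has 33 CpG dinucleotides, more than 91.4% of all windows; the median of all windows is 7. Strings of other factors were searched as well, and E2F is not the only one that the 2 windows share. The GC box GGGCGG has 2 matches in Dnmt1 and 3 in Uhrf1, and CCAAT has 3 and 2. These common strings are in 35.7% and 37.4% of all windows. The strings were chosen with the RNA values known, and a match is not evidence of binding.

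Uhrf1 was lower in late germ cells than in every earlier cell type they were set against. In Ck-PGCLCs of day 6 Uhrf1 stood at 7.99 and 6.70, against 11.03 and 9.46 in EpiLCs of 48 h. Both day 6 values lay below both EpiLC values, and the difference was -2.90 on the log2 scale (SE 0.69, 95% interval -4.36 to -1.45), 7.48-fold lower, adjusted p 0.00298. Uhrf1 was the only one of the 7 genes called in this comparison, in which 18.6% of tested genes were called. In PGCs of embryonic day 9.5 Uhrf1 stood at 8.91 and 6.86, against 10.92 and 9.89 in the epiblast of embryonic day 5.5. The groups did not overlap, and the difference was -2.52 (95% interval -3.98 to -1.07), adjusted p 0.00952, with 15.8% of tested genes called and again no other of the 7. Against ESCs, at 10.96 and 10.10, PGCs were lower by a log2 difference of -2.64 (95% interval -4.10 to -1.19), adjusted p 0.00577, where 19.6% of tested genes were called. The 2 PGC comparisons share the PGC arrays. Since these are bulk samples, fewer cells of a type with Uhrf1 RNA and less Uhrf1 RNA per cell cannot be told apart.

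Ck-PGCLCs of day 6 and PGCs differed from each other in Uhrf1 by -0.54 (95% interval -2.0 to 0.91), and their arrays overlapped. The interval is too wide to tell whether their levels differ. ESCs, EpiLCs of 48 h and epiblast lay within 0.28 of each other in group means, and all 3 overlapped. The globins Hbb-y and Hba-x were high in PGCs, and their part in the PGC difference was not tested. In Ck-PGCLCs of day 6 they stood at 0.64 and 3.18 (Hbb-y) and 4.62 and 4.46 (Hba-x).

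The spread between the arrays of a group was wide for Uhrf1. In all 5 earlier groups replicate 1 was higher than replicate 2, so that same-numbered arrays gave closer differences than the group spread shows: -3.04 and -2.76 for Ck-PGCLCs of day 6 less EpiLCs of 48 h, -2.01 and -3.03 for PGCs less epiblast. Each of the 3 calls was lost when some single array was left out. For day 6 Ck-PGCLCs the difference was -2.12 (adjusted p 0.0651) without EpiLC replicate 1 and -2.26 (adjusted p 0.0589) without Ck-PGCLC replicate 2. For PGCs against epiblast it was -2.01 (adjusted p 0.106) without epiblast replicate 1 and -1.5 (adjusted p 0.186) without PGC replicate 2. For PGCs against ESCs it was -2.22 (adjusted p 0.0673) without ESC replicate 1 and -1.62 (adjusted p 0.132) without PGC replicate 2. The lower direction held without each array in turn. When limma was fitted to the earlier arrays alone, the 2 PGC differences also missed the threshold (adjusted p 0.0754 and 0.0541).

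In the newly submitted arrays Uhrf1 took the same direction in every PGCLC group against EpiLCs of 36 h, without being called. Ck-PGCLCs of day 2 had 8.92 and 9.71 and those of day 4 had 8.67 and 8.01, against 9.63 and 10.74 in EpiLCs. Day 4 lay wholly below the EpiLCs and day 2 overlapped them. The difference at day 4 was -1.84 (95% interval -3.30 to -0.39), adjusted p 0.0538, and at day 2 it was -0.87 (95% interval -2.32 to 0.59), adjusted p 0.417. In TF-PGCLCs with all 3 factors Uhrf1 had 7.79 and 9.20 at day 2 and 8.84 and 8.99 at day 4, both below the EpiLC arrays, with differences of -1.69 (adjusted p 0.102) and -1.27 (adjusted p 0.206). Fitted to the newly submitted arrays alone, Ck day 4 (adjusted p 0.0176) and BP14A day 2 (adjusted p 0.0363) were called. The replicate numbers pair the earlier arrays, and with the numbers as a block there, which lowers the common estimate of the spread, the same 2 differences were called, at adjusted p-values of 0.00773 (Ck day 4) and 0.0182 (BP14A day 2). Uhrf1 was then called in day 2 BP14A (-1.39, adjusted p 0.0454) and BP14 cells (-1.39, adjusted p 0.0468) against the parental clone with doxycycline too. It was also called in stella-ECFP-positive BP14A ESCs against day 2 BP14A cells (1.59, adjusted p 0.0391). BP14 replicate 1, at 7.83 against 9.16 in replicate 2, was an array of low Gapdh 5′ signal. Without the arrays of low Gapdh 5′ signal, and without a block, the BP14 difference was -0.73. With the block in the earlier arrays 14.5% (BP14A), 13.5% (BP14) and 7.1% (BP14A ESCs) of tested genes were called. In Ck day 4 against EpiLCs 17% of tested genes were called with that block and 16.4% without it. Without any block or refit, limma called 0 of the 7 genes in these 3 comparisons (16.4%, 11.6% and 14% of tested genes called for Ck day 4, BP14A day 2 and BP14A day 4), and 4, 2 and 2 had an unadjusted p under 0.05.

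In the parental clone given doxycycline alone Uhrf1 was not called lower. It had 10.23 and 9.55, overlapping the EpiLCs at 9.63 and 10.74, a difference of -0.29 (95% interval -1.75 to 1.16). Of the other factor sets, BP14 cells had 7.83 and 9.16, close to BP14A cells of day 2 at 7.79 and 9.20. P14A and P14 cells were intermediate in their group means: P14A cells had 9.36 and 9.34 and P14 cells 8.54 and 9.55, against 10.23 and 9.55 in the parental clone. BP14A ESCs given doxycycline had 10.19 and 9.97, against 10.95 and 11.11 in BP14A ESCs, a difference of -0.95 (95% interval -2.40 to 0.50) without overlap between the groups. BP14A ESCs had the highest Uhrf1 mean of all 16 groups, 11.03, and Ck-PGCLCs of day 6 the lowest, 7.34. Neighbours in that order overlapped in 14 of 15 pairs.

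A second Uhrf1 probe set, 1415811_at, was dimmer (mean 4.34 over all arrays, against 9.35 for the one used) and followed it with r = 0.889 over the 16 group means. Put in place of the brighter one its level in PGCLCs was called lower against EpiLCs of 36 h, by -1.21 in Ck-PGCLCs of day 2 (adjusted p 0.0265), -2.53 in those of day 4 (adjusted p 4.8e-05), -1.84 in BP14A cells of day 2 and -1.64 in those of day 4. It was also called lower in the parental clone with doxycycline (-1.16, adjusted p 0.035), where the brighter probe set was not. Its mean was 5.55 in the EpiLCs but 3.02 in Ck-PGCLCs of day 4, 3.72 in BP14A cells of day 2 and 3.91 in those of day 4. These 3 means lay under the level set for testing (4.05), so the probe set was tested through the groups where it is high, and its calls and their sizes support nothing on their own.

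**Figure D3:**
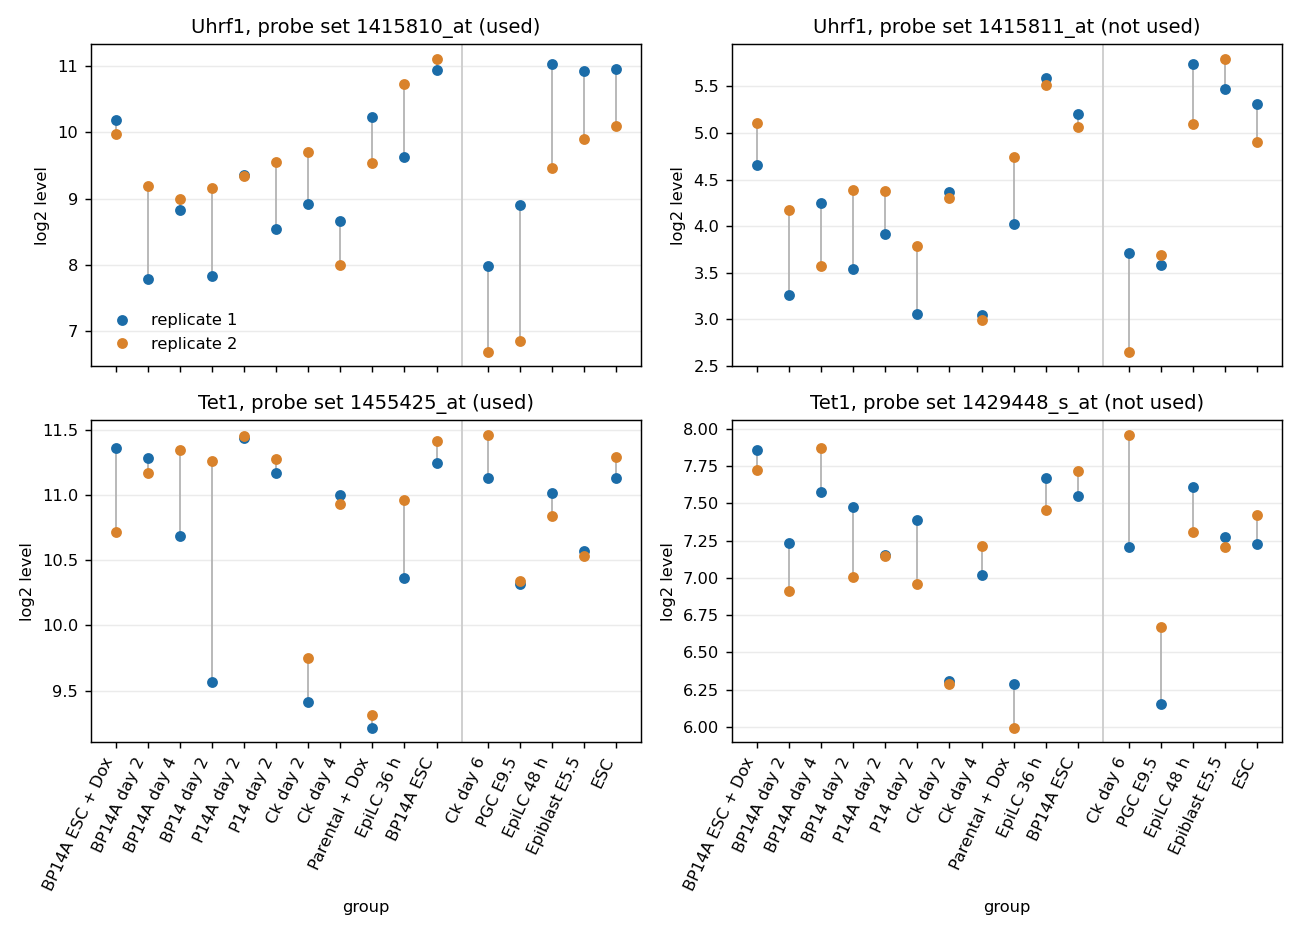
Log2 level (y axis) on each array by group (x axis) for 2 probe sets of Uhrf1 (top) and 2 of Tet1 (bottom); lines join the arrays of a group and colours mark the replicate number. Both Uhrf1 probe sets are low in Ck-PGCLCs of days 4 and 6 and in PGCs, and both Tet1 probe sets are low in Ck-PGCLCs of day 2 and in the parental clone with doxycycline. The Tet1 probe set not used is low in PGCs as well.

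Dnmt1, the maintenance methyltransferase, was higher where Uhrf1 was lowest. Dnmt1 stood at 11.95 and 12.08 in Ck-PGCLCs of day 6, against 11.29 and 11.30 in EpiLCs of 48 h, and in PGCs it stood at 11.99 and 11.97, against 11.33 and 11.30 in epiblast. Neither pair of groups overlapped. The increases were 0.72 (SE 0.13, 95% interval 0.45 to 0.98, adjusted p 0.000191) and 0.67 (95% interval 0.40 to 0.93, adjusted p 0.000467), or 1.65-fold and 1.59-fold. They passed the adjusted p, as 31.8% and 27.5% of tested genes did at any size, but not the 2-fold limit, and both intervals lay below 2-fold. PGCs exceeded ESCs, at 11.31 and 11.55, by 0.55 (adjusted p 0.00198), where 32% of tested genes passed at any size.

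The same rise appeared along the cytokine route in the newly submitted arrays. Dnmt1 had 11.36 and 11.44 in Ck-PGCLCs of day 2 and 11.86 and 11.88 in those of day 4, against 11.23 and 11.19 in EpiLCs of 36 h. Day 4 lay above both other groups, by 0.66 over EpiLCs (adjusted p 0.000521; 28.7% of tested genes passed at any size) and by 0.47 over day 2 (adjusted p 0.0104; 21.3% passed). The factor route did not pass against EpiLCs: BP14A cells had 11.41 and 11.51 at day 2 and 11.32 and 11.65 at day 4, differences of 0.25 (95% interval -0.02 to 0.51) and 0.27 (95% interval 0.01 to 0.54) from EpiLCs, adjusted p 0.204 and 0.13. Against the parental clone with doxycycline BP14A and P14 cells of day 2 differed by 0.18 and 0.22 and did not pass. With probe set 1435122_x_at both passed under 2-fold (0.34, adjusted p 0.0434, and 0.37, adjusted p 0.0299). With 1447877_x_at neither did (0.39, adjusted p 0.0666, and 0.35, adjusted p 0.112). At day 4 BP14A cells lay below Ck-PGCLCs by -0.38 (95% interval -0.65 to -0.12), adjusted p 0.0582, without overlap. That difference passed the adjusted p with both other Dnmt1 probe sets (-0.39, adjusted p 0.0397, and -0.48, adjusted p 0.0438) and with the replicate numbers of the earlier arrays as a block (adjusted p 0.0351). Both BP14A arrays of day 4 had low Gapdh 5′ signal, and no fit without such arrays could be made for that group. The test of whether the 2 routes differ between days 2 and 4 gave -0.45 (adjusted p 0.112). Both other Dnmt1 probe sets kept the 5 increases, at adjusted p-values up to 0.00442, and followed the one used with r of 0.973 and 0.917 over the 16 group means. Across group means Dnmt1 and Uhrf1 had r = -0.74 over all 16 groups, -0.98 over the 5 earlier and -0.42 over the 11 new ones, as a description of means that share arrays and normalization.

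**Figure D4:**
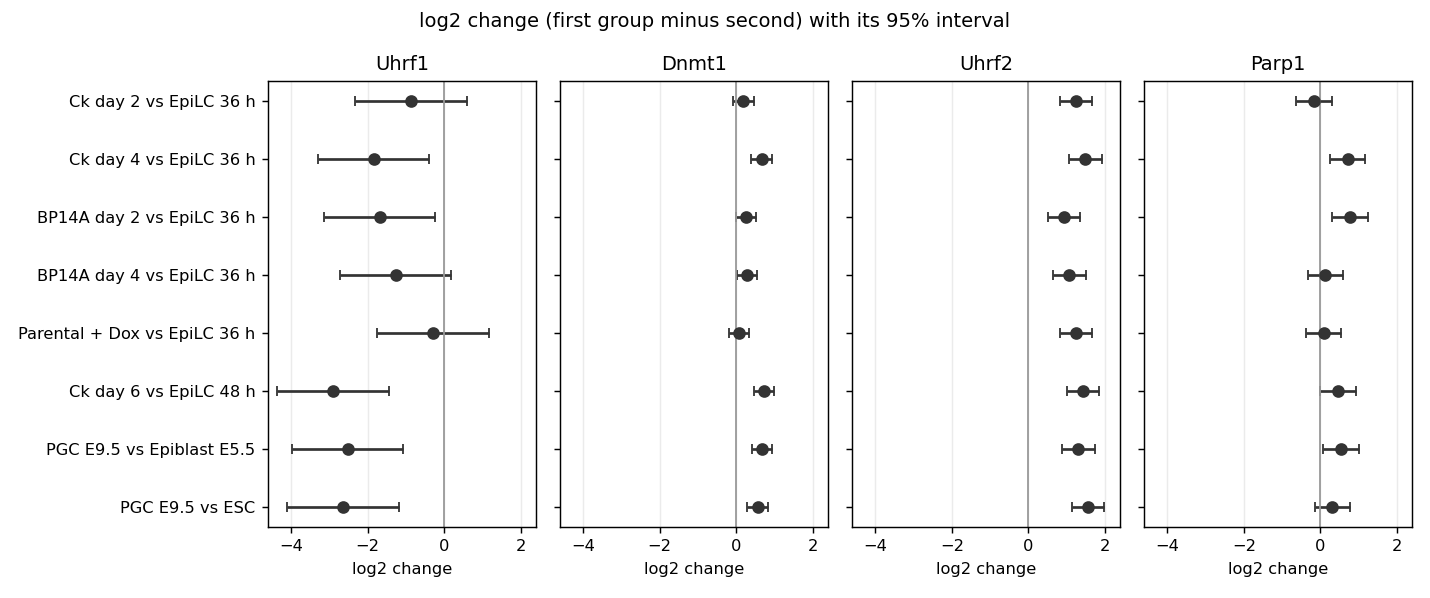
Log2 change with its 95% interval (x axis) of Uhrf1, Dnmt1, Uhrf2 and Parp1 in 8 comparisons (y axis, first group minus second). Uhrf1 intervals lie below 0 in 5 of the 8, Dnmt1 changes stay between 0.07 and 0.72, and all 8 Uhrf2 changes are above 0.

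Of 10 partners of maintenance methylation, 1 rose and 3 fell in Ck-PGCLCs of day 4 against EpiLCs of 36 h, where 16.4% of tested genes were called (median -0.29, against -0.03 over all tested genes). The one that rose was Uhrf2, the paralogue of Uhrf1, at 10.72 and 10.84 in Ck-PGCLCs of day 4, against 9.49 and 9.10 in EpiLCs, by 1.49 (adjusted p 1.08e-05). Zfp57, a zinc finger protein that protects methylation at imprinted loci, fell by 1.50 and Ehmt1, a histone H3 lysine 9 methyltransferase, fell by 1.32. In PGCs against epiblast 1 of 10 rose and 2 fell (15.8% of tested genes called), and in Ck-PGCLCs of day 6 against EpiLCs of 48 h 1 rose and 1 fell (18.6% called). Uhrf2 was again the gene that rose, by 1.30 (adjusted p 4.96e-05) in PGCs and 1.43 (adjusted p 1.52e-05) in Ck-PGCLCs of day 6. Unlike Uhrf1, it was higher in the parental clone with doxycycline than in EpiLCs as well, by 1.24 (adjusted p 0.000114).

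Of 16 S phase and proliferation genes, 0 rose and 1 fell in PGCs against epiblast (median -0.03; 15.8% of tested genes called), and 1 rose and 1 fell in Ck-PGCLCs of day 6 against EpiLCs of 48 h (median 0.07; 18.6% called). In Ck-PGCLCs of day 4 against EpiLCs of 36 h 0 rose and 2 fell (16.4% called). In these 3 comparisons 4, 5 and 5 of the 16 had an unadjusted p under 0.05 by limma. The gene that fell in PGCs was Ccne1, which encodes cyclin E1, by 1.15, and Ccne1 (by 1.56) and the thymidylate synthase gene Tyms (by 1.32) fell in Ck-PGCLCs of day 4. The de novo methyltransferase genes Dnmt3a, Dnmt3b and Dnmt3l, in contrast, all 3 fell in these comparisons, with changes of -5.93, -5.20 and -6.05 in Ck-PGCLCs of day 4 against EpiLCs.

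Tet1, which starts oxidative demethylation and is abundant in naive ESCs, was high in most groups and, with the probe set used, clearly lowest in a pair of them. The parental clone with doxycycline had 9.22 and 9.32 and Ck-PGCLCs of day 2 had 9.42 and 9.75, against 10.36 and 10.96 in EpiLCs of 36 h. Both groups lay wholly below the EpiLCs, by -1.40 (SE 0.36, adjusted p 0.00698) and -1.08 (adjusted p 0.0314). Each was the only call among the 7 genes, where 12.9% and 14.5% of tested genes were called. These were also the groups with the most RNA of streak and mesoderm markers: the median over 5 such markers was 8.4 in the parental clone with doxycycline and 9.7 in Ck-PGCLCs of day 2, against 4.1 in EpiLCs, and their part in the Tet1 difference was not tested. The median over 4 endoderm markers was 6.4 in the parental clone (highest marker 10.2) and 5.1 in Ck-PGCLCs of day 2 (highest 5.9), against 4.4 in EpiLCs (highest 5.5), and its part was not tested either.

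By day 4 of cytokine induction Tet1 was higher again. Ck-PGCLCs of day 4 had 11.002 and 10.93, above the 9.42 and 9.75 of day 2 by 1.38 (95% interval 0.64 to 2.13, adjusted p 0.00772; 12.5% of tested genes called). They overlapped the EpiLCs, with a difference of 0.31 (95% interval -0.44 to 1.05). Over the same interval 4 of the 5 streak and mesoderm markers fell.

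Tet1 was higher in all 4 factor sets than in the parental clone with doxycycline, which had 9.22 and 9.32. At day 2 P14A cells had 11.44 and 11.45, BP14A cells 11.28 and 11.17, P14 cells 11.16 and 11.27, and BP14 cells 9.56 and 11.26. No factor set overlapped the parental clone. The differences were 2.18 in P14A cells (adjusted p 0.000124), 1.96 in BP14A cells (adjusted p 0.000329), 1.95 in P14 cells (adjusted p 0.000371) and 1.15 in BP14 cells (adjusted p 0.0247). The shares of tested genes called were 12.5%, 13.9%, 12.9% and 12.8%, and Tet1 was the only one of the 7 called in each; the 4 comparisons share the parental arrays. The low BP14 array, replicate 1 at 9.56, was one of those with a large Gapdh difference (-4.07). Without the 6 arrays of low Gapdh 5′ signal, an alternative chosen after seeing the data, the BP14 difference was 1.997 (adjusted p 6.17e-06), and BP14A cells differed from BP14 cells by -0.037 (adjusted p 0.9999), where all arrays gave 0.81 (adjusted p 0.53). Without BP14 replicate 2, which leaves the low array alone, the BP14 difference was 0.30 (adjusted p 0.493), and BP14A cells were called above BP14 cells by 1.66 (adjusted p 0.00666). BP14A cells of day 2 also exceeded Ck-PGCLCs of day 2 in Tet1, by 1.64 (adjusted p 0.00193; 12.6% of tested genes called). Set against EpiLCs of 36 h, BP14A cells of day 2 differed by 0.56 (95% interval -0.18 to 1.31, adjusted p 0.323), and both their arrays lay above both EpiLC arrays. Ck-PGCLCs of day 2 and the parental clone differed by 0.32 (95% interval -0.43 to 1.06), and limma called 0 of the 7 genes between them (3.73% of tested genes called, 0 unadjusted p-values under 0.05).

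Single arrays decided several of the smaller Tet1 calls. Ck-PGCLCs of day 2 against EpiLCs gave -0.78 (adjusted p 0.239) without EpiLC replicate 2, -0.91 (adjusted p 0.182) without Ck-PGCLC replicate 1 and -1.24 (adjusted p 0.063) without replicate 2, and with the deposited values as they stand it gave -0.945 (adjusted p 0.073). Day 4 against day 2 gave 1.21 (adjusted p 0.0800) without day 2 replicate 1 and 1.35 (adjusted p 0.0525) without day 4 replicate 1. The parental clone against EpiLCs gave -1.35 (adjusted p 0.0513) without parental replicate 1 and -1.10 (adjusted p 0.0866) without EpiLC replicate 2, and BP14 against the parental clone gave 1.1 (adjusted p 0.116) and 1.2 (adjusted p 0.0847) without parental replicates 1 and 2. The calls for BP14A, P14A and P14 cells held without each array in turn.

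Of the other Tet1 probe sets, 1429448_s_at (mean 7.18) followed the one used with r = 0.777. It kept the falls in the parental clone (-1.42, adjusted p 0.00015) and in Ck-PGCLCs of day 2 (-1.27, adjusted p 0.000409) and gave smaller rises over the parental clone, 0.93 to 1.10 in the 4 factor sets. With 1429448_s_at PGCs were low too, at 6.16 and 6.67. The parental clone with doxycycline had 6.29 and 5.99 with it, and Ck-PGCLCs of day 2 had 6.31 and 6.29. Probe sets 1419897_at and 1419896_at were dim, with means of 4.33 and 4.28, and followed the one used with r of only -0.09 and 0.36.

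In the earlier arrays Tet1 was not called in any comparison by limma, although 2 of its unadjusted p-values were under 0.05. PGCs had 10.32 and 10.34, against 11.13 and 11.29 in ESCs, a difference of -0.88 (95% interval -1.63 to -0.14, adjusted p 0.0664) without overlap. Ck-PGCLCs of day 6, at 11.13 and 11.46, lay above PGCs by 0.97 (95% interval 0.22 to 1.71, adjusted p 0.0901), also without overlap. With 1429448_s_at the first of these passed under 2-fold (-0.91, adjusted p 0.00514) and the second was called (1.17, adjusted p 0.00186), and PGCs were lower than epiblast by -0.83 (adjusted p 0.0117).

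Tet2, the second TET enzyme measured well, changed little. The epiblast had 7.47 and 7.93, against 8.26 and 8.35 in ESCs, a fall of -0.60 (SE 0.20, adjusted p 0.0287), which passed the adjusted p as 29% of tested genes did at any size. It was the single unadjusted p under 0.05 among the 7 genes there, and limma called 0 of them at 2-fold (17% of tested genes called). No other of the 26 comparisons passed. In BP14A cells of day 2 Tet2 had 8.88 and 8.82, against 8.09 and 8.55 in the parental clone with doxycycline, a difference of 0.53 (adjusted p 0.0612), and 8.44 and 8.27 in Ck-PGCLCs of day 2, a difference of 0.50 (adjusted p 0.0873). With the replicate block in the earlier arrays these differences passed, at adjusted p-values of 0.0319 and 0.047. Tet3 was below the level set for testing in all 16 groups and is not described further.

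Among 7 other genes of the oxidation list (Ogt, isocitrate dehydrogenases, whose product is the TET co-substrate, and the Gadd45 genes, which have been linked to active demethylation), 3 rose and 1 fell in BP14A cells of day 2 against EpiLCs of 36 h, where 11.6% of tested genes were called. Gadd45b had 7.28 and 7.97 in BP14A cells, against 4.88 and 5.29 in EpiLCs, and rose by 2.53 (adjusted p 0.000297). Gadd45g had 5.24 and 4.69, against 9.53 and 9.87 in EpiLCs, and fell by 4.73 (adjusted p 6.07e-08). Gadd45a rose in 3 of the comparisons in which Tet1 was called higher: by 1.93 in BP14A cells against the parental clone, by 2.55 against Ck-PGCLCs of day 2, and by 2.44 in Ck-PGCLCs of day 4 against day 2. It also rose by 2.88 in PGCs against epiblast, where Tet1 differed by -0.23.

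Of 12 deaminase and glycosylase genes tested, 1 rose and 1 fell in PGCs against epiblast (15.8% of tested genes called) and 2 rose and 2 fell in Ck-PGCLCs of day 6 against EpiLCs of 48 h (18.6% called). Apobec3, a cytidine deaminase gene of antiviral defence, had 4.97 and 4.98 in PGCs, against 8.64 and 8.66 in epiblast, and fell by 3.68 (adjusted p 2.15e-10). Smug1, a uracil glycosylase gene that also acts on 5-hydroxymethyluracil, had 8.21 and 8.30 in Ck-PGCLCs of day 6, against 6.55 and 6.71 in EpiLCs, and rose by 1.62 (adjusted p 1.24e-06). It rose by 1.24 in Ck-PGCLCs of day 4 against EpiLCs of 36 h, the single rise among the 12, none of which fell (16.4% of tested genes called).

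Parp1, which adds poly-ADP-ribose at DNA breaks and calls in repair proteins, rose by less than 2-fold in Ck-PGCLCs of day 4 and in BP14A and P14A cells of day 2. Ck-PGCLCs of day 4 had 12.64 and 12.45, against 11.60 and 11.75 in those of day 2 and 11.62 and 12.05 in EpiLCs of 36 h, increases of 0.87 (adjusted p 0.00717) and 0.71 (adjusted p 0.0213) without overlap. BP14A cells of day 2 had 12.61 and 12.59 and exceeded EpiLCs by 0.76 (adjusted p 0.0185; 19.8% of tested genes passed at any size), Ck-PGCLCs of day 2 by 0.93 (adjusted p 0.0043; 20.9% passed) and the parental clone, at 11.80 and 12.04, by 0.68 (adjusted p 0.0312; 23.1% passed). P14A cells, at 12.59 and 12.71, exceeded the parental clone by 0.73 (adjusted p 0.0226; 21.1% passed). None of these 6 increases reached 2-fold with the brightest probe set and all arrays. With 1435368_a_at Parp1 was called over Ck-PGCLCs of day 2 in those of day 4 (1.04, adjusted p 9.75e-06) and in BP14A cells (1.01, adjusted p 1.17e-05), and without Ck-PGCLC day 2 replicate 2 BP14A cells were called with the brightest (1.003, adjusted p 0.0186). The other factor sets did not pass against the parental clone, with 0.61 (adjusted p 0.0586) in P14 cells and 0.36 (adjusted p 0.28) in BP14 cells. P14 cells passed with the replicate block in the earlier arrays (adjusted p 0.0457). Both sets passed under 2-fold with 1422503_s_at (0.72 in P14 and 0.70 in BP14 cells) and with 1435368_a_at (0.69 in P14 and 0.75 in BP14 cells). In the earlier arrays Ck-PGCLCs of day 6 exceeded EpiLCs of 48 h by 0.46 (95% interval -0.003 to 0.93, adjusted p 0.125) and PGCs exceeded epiblast by 0.53 (95% interval 0.07 to 1.0, adjusted p 0.0852), without overlap in either. With 1422503_s_at and with 1435368_a_at in place of the brightest Parp1 probe set both passed the adjusted p, at 0.58 and 0.81 for day 6 and 0.74 and 0.72 for PGCs. PGCs also exceeded ESCs under 2-fold with these probe sets (0.49, adjusted p 0.00847, and 0.59, adjusted p 0.00187). The brightest gave 0.31 there and did not pass.

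From day 2 to day 4 Parp1 changed differently along the factor and cytokine routes. BP14A cells had 12.61 and 12.59 at day 2 and 11.79 and 12.15 at day 4, where Ck-PGCLCs had 11.60 and 11.75 at day 2 and 12.64 and 12.45 at day 4. The change from day 2 to day 4 differed between BP14A cells and Ck-PGCLCs by -1.51 (SE 0.31, adjusted p 0.0023), and for Tet1 by -1.59 (SE 0.50, adjusted p 0.0378). These were the only calls among the 7 genes in this test, which called 11.8% of tested genes. Both BP14A arrays of day 4 had low Gapdh 5′ signal (differences of -4.66 and -2.99), and with that difference as a covariate the values were -0.87 (adjusted p 0.00755) for Parp1 and -0.57 (adjusted p 0.321) for Tet1. With 1429448_s_at the Tet1 value was -0.17 (adjusted p 0.82), and with the other bright Parp1 probe sets the Parp1 value was -1.01 and -1.13. At day 4 itself BP14A cells less Ck-PGCLCs gave -0.58 with the brightest Parp1 probe set, which did not pass without a replicate block. The other bright Parp1 probe sets gave -0.17 (adjusted p 0.499) and -0.12 (adjusted p 0.664) at day 4, but 0.84 and 1.01 at day 2. Within BP14A cells the change from day 2 to day 4 was -0.63 with the brightest probe set. It was only -0.20 (adjusted p 0.558) and -0.09 (adjusted p 0.833) with the others. Compared with EpiLCs of 36 h, BP14A cells of day 4 differed by 0.13 with the brightest. They passed under 2-fold with the others (0.40, adjusted p 0.0385, and 0.68, adjusted p 0.000812).

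Apex1, the endonuclease that cuts at abasic sites, was the steadiest of the 7. Its arrays ranged from 12.09 (EpiLCs of 48 h, replicate 1) to 12.66 (ESCs, replicate 2), and the largest of its 26 differences was -0.34 (95% interval -0.65 to -0.03, adjusted p 0.1), in BP14A cells of day 4 against EpiLCs of 36 h. With the replicate block in the earlier arrays that difference passed (adjusted p 0.00973), as did -0.32 in the same cells against Ck-PGCLCs of day 4 (adjusted p 0.0258) and -0.27 in EpiLCs of 48 h against ESCs (adjusted p 0.0342). Both BP14A arrays of day 4 had low Gapdh 5′ signal (differences of -4.66 and -2.99), and no fit without such arrays could be made for that group. In Ck-PGCLCs of day 6 against EpiLCs of 48 h Apex1 differed by 0.13 (95% interval -0.18 to 0.44) and in PGCs against epiblast by -0.05 (95% interval -0.36 to 0.26), intervals that lie within 2-fold.

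Xrcc1, the scaffold that gathers DNA ligase 3 and polymerase beta at a break, had its highest group mean in PGCs. PGCs had 10.74 and 10.36, against 9.92 and 9.62 in epiblast, a difference of 0.79 (95% interval 0.17 to 1.40, adjusted p 0.0536) without overlap. With the replicate numbers that pair the earlier arrays as a block it passed under 2-fold (adjusted p 0.0245), and the same-numbered differences were 0.83 and 0.75. Ck-PGCLCs of day 4 had 10.20 and 10.27, against 9.33 and 9.83 in EpiLCs of 36 h, a difference of 0.65 (95% interval 0.04 to 1.27, adjusted p 0.11). At day 4 BP14A cells, at 9.56 and 9.62, lay below Ck-PGCLCs by -0.64 (adjusted p 0.183). Both of these BP14A arrays had low Gapdh 5′ signal. BP14 cells had the widest pair of arrays, 9.09 and 10.11, and the lower was again replicate 1, whose Gapdh difference was -4.07.

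Of 10 other repair genes, of end processing, ligation and poly-ADP-ribose metabolism, 1 rose and 0 fell in Ck-PGCLCs of day 4 against EpiLCs of 36 h (16.4% of tested genes called) and 1 rose and 0 fell in Ck-PGCLCs of day 6 against EpiLCs of 48 h (18.6% called). In PGCs against epiblast 1 rose and 1 fell (15.8% called). In these 3 comparisons 2, 2 and 4 of the 10 had an unadjusted p under 0.05 by limma. The gene that rose was Aplf, a histone chaperone that binds poly-ADP-ribose. It had 7.60 and 7.84 in PGCs, against 5.87 and 6.07 in epiblast, and rose by 1.75 (adjusted p 0.000721), and it rose by 2.48 in Ck-PGCLCs of day 4 and 1.48 in those of day 6. Apex2, which encodes a second abasic endonuclease, fell by 1.04 in PGCs.

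None of the 7 genes passed when the factors were induced in ESCs. In BP14A ESCs with doxycycline, sorted for stella-ECFP, against BP14A ESCs, limma called 0 of the 7 and 0 had an unadjusted p under 0.05, where 9.41% of tested genes were called. The differences ran from -0.95 for Uhrf1 to 0.19 for Parp1. Dnmt3a and Dnmt3l rose in the same comparison by 4.14 and 3.53, and Gadd45a by 2.34. With the probe sets used and without a replicate block none of the 7 passed either in EpiLCs against ESCs, at 36 h (14.6% of tested genes called, 1 unadjusted p under 0.05 among the 7) or at 48 h (14.4% called, 0 under 0.05), in BP14A cells between days 4 and 2 (1.43% called, 1 under 0.05), or in BP14A cells against Ck-PGCLCs at day 4 (6.12% called, 4 under 0.05). The same held for BP14A ESCs with doxycycline against day 2 BP14A cells (6.16% called, 1 under 0.05), for BP14A against BP14 cells (0.329% called, 2 under 0.05) and P14A cells (0.0129% called, 0 under 0.05), and for EpiLCs of 48 h against epiblast (4.74% called, 0 under 0.05). The interaction of factors with the starting cell (13.5% called) and that of Blimp1 with Tfap2c on Prdm14 (0.0258% called) passed for none of the 7 by limma either, with 0 unadjusted p-values under 0.05 in each. Other probe sets passed under 2-fold in some of these tests. EpiLCs of 36 h lay below BP14A ESCs with 1435122_x_at of Dnmt1 (-0.41, adjusted p 0.0164) and 1435368_a_at of Parp1 (-0.45, adjusted p 0.0185). This was not so with 1447877_x_at of Dnmt1 or 1422503_s_at of Parp1. For Parp1 the interaction of factors with the starting cell was -0.63 (adjusted p 0.0278) with 1435368_a_at and -0.32 (adjusted p 0.323) with 1422503_s_at. Between Ck-PGCLCs of day 6 and PGCs 7.36% of tested genes were called by limma and 0 of the 7, with 1 unadjusted p under 0.05.

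The tested genes whose pattern over the 16 group means was most like that of Uhrf1 were Pgd, Cat and Bcar3, with Pearson r of 0.936, 0.932 and 0.932. For Dnmt1 they were Lgmn (0.956), Ptger2 (0.956) and Rictor (0.945), and for Tet1 Atl3 (0.866), Epas1 (0.860) and Chchd4 (0.859). For Tet2 they were Fndc10, Prr15 and Pax3 (0.947 to 0.930), for Parp1 Ubxn1, Cyp21a1 and Rapgef1 (0.914 to 0.889), for Xrcc1 Dda1, Hoxc10 and Lrrc45 (0.893 to 0.867), and for Apex1, which hardly varied, Gsdmcl2, Tmem41b and Zfp825 (0.809 to 0.765). The 3 highest r were taken for each of the 7 from the 15497 tested genes, leaving out the 7 themselves and symbols that are clone or model numbers. They are thus extremes of a long list, on means that share arrays. Among the 7 genes themselves Dnmt1 went most closely with Xrcc1 (r = 0.78 over the 16 group means) and Parp1 (r = 0.65). All Tet2 means of the earlier groups lay below those of the new groups. Whether the r values of the genes most like Tet2 rest on that difference was not tested.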

How the data were processed

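Expression was measured in 32 samples, 2 for each of 16 groups, and 1 log2 value per probe set and array (45101 probe sets) was used as the authors deposited it; the software behind the deposited log2 values is not given in the sources consulted. Per the design text, cDNA of about 20000 cells was amplified by PCR, and this favours 3′ ends. After setting aside 64 control probe sets, the log2 values were quantile normalized, and each gene took its brightest probe set with 1 symbol (34958 probe sets have 1 symbol, 932 several). Genes with a group mean at or above the 40th percentile of the values (4.05) in at least 1 group were tested.

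limma 3.58.1 (R 4.3.3) fitted 16 group means over all 32 arrays (16 residual degrees of freedom), with Benjamini-Hochberg adjustment over 15497 genes in each of 26 comparisons and 3 interactions. The fit was tested on simulated data. The number of arrays, 2 a group, limits the precision. Members, lists and comparisons were chosen with earlier results of these data known. The text names the 7 members, up to 2 called genes per list and direction with the strongest change, and the 3 genes most like each member. Same-numbered arrays deviated together in the earlier set (r of 0.243 to 0.522 in all 10 pairs of groups), so their numbers pair them; in the new set only 25 of 55 pairs were above 0.1. Promoters are RefSeq's (GRCm38.p6). Alternatives changed the normalization, probe set, filter, threshold, arrays fitted, replicate block, Gapdh covariate and arrays left out.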

Additional observations from a re-analysis of the deposited data

Results flagged for a closer look

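The change between days 2 and 4 differed between BP14A TF-PGCLCs and Ck-PGCLCs, by the interaction test of limma, for Tet1 (-1.59, adjusted p 0.0378) and for Parp1 (-1.51, adjusted p 0.0023). Both BP14A arrays of day 4 had low Gapdh 5′ signal, and a fit with that difference as a covariate gave -0.57 (adjusted p 0.321) for Tet1 and -0.87 (adjusted p 0.00755) for Parp1. The Tet1 difference missed the threshold without any 1 of 7 of the 8 arrays (adjusted p 0.0559 to 0.172) and with the next brightest Tet1 probe set (-0.17, adjusted p 0.82).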

How the results depend on the processing

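Over 203 changes of the 7 genes, 9665 of 9803 alternative values kept the call and 11 changed sign against a called value or with a call of their own. With the dim Tet1 probe set 1419897_at Tet1 became 0.48 (Ck-PGCLC day 2) and 0.21 (parental clone with doxycycline) against EpiLCs, -0.49 in BP14A cells against Ck-PGCLCs of day 2, -0.22, -0.22 and -0.32 in BP14A, BP14 and P14 cells against the parental clone, and 0.0059 in the interaction of route and time; with 1419896_at the values were -0.96 (BP14A against Ck-PGCLCs, day 2), -0.040 (BP14A against the parental clone) and 0.50 (interaction). None of these was called. The mean of all probe sets, which includes a Tet2 probe set below the filter, gave Tet2 1.32 in BP14A cells of day 4 against EpiLCs (-0.23 otherwise). The number of the 7 genes called moved as follows. In Ck-PGCLCs of day 2 against EpiLCs (1 called) it was 0 with the deposited values, median centring, the mean of all probe sets, an adjusted p under 0.01, or only the arrays of the groups or set compared, and 2 with the next brightest probe set. In Ck-PGCLCs of day 4, BP14A cells of day 2 and BP14A cells of day 4 against EpiLCs (0 called) it was 1, 1 and 2 with the mean of all probe sets and 1 each with the next brightest probe set and with the replicate block. Day 4 Ck-PGCLCs also gave 1 with the 60th percentile filter, the Gapdh covariate and the same set alone, as did BP14A cells of day 4 with the covariate and of day 2 with the same set alone. Against the parental clone (1 called each) BP14A, BP14 and P14 cells gave 0 with the mean of all probe sets, BP14A cells 0 with the next brightest, BP14 cells 0 at an adjusted p under 0.01 and with fewer arrays, and BP14A and BP14 cells 2 with the replicate block. The parental clone against EpiLCs gave 0 (mean of all) and 2 (next brightest). PGCs gave 0, not 1, against epiblast and ESCs with fewer arrays. Ck-PGCLCs of day 6 against PGCs (0 called) gave 1 with the next brightest probe set and with the covariate, EpiLCs of 36 h against BP14A ESCs (0 called) 1 with the mean of all, and BP14A cells against Ck-PGCLCs of day 2 (1 called) 0 with the next brightest. The interaction of route and time (2 called) gave 1 with the deposited values, either probe set rule, an adjusted p under 0.01 or the same set alone, and 0 with the covariate. Without the fold limit, Ck-PGCLCs of day 4 against day 2 gave 3, and 9 other comparisons gave 1 or 2. Leaving out 1 array gave 0 to 1 in 9 comparisons and 1 to 2 in BP14A against Ck-PGCLCs of day 2 and in the interaction. The replicate block also gave 1 (Uhrf1) for BP14A ESCs with doxycycline against day 2 BP14A cells (0 without it). The block in the earlier arrays only, chosen after seeing the data, gave the same counts as the full block except 0 for BP14A cells of day 4 against EpiLCs, and every call at 2-fold that either block added was of Uhrf1. Neither removed a call. Leaving out the 6 arrays of low Gapdh 5′ signal, also chosen after seeing the data, left the count unchanged in all 25 comparisons that could be made, though Tet1 in BP14 cells against the parental clone was 1.997 in place of 1.15; those with BP14A cells of day 4 could not. A log2 pseudocount was not run, since the files hold log2 values. Having 2 arrays a group, and Uhrf1's wide spread, limit what could be detected. The causes of these changes were not tested.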

Other observations

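The replicate number went with the level of several of the 7 genes in the earlier arrays. Replicate 1 was above replicate 2 in 5 of 5 groups for Uhrf1 and for Xrcc1, and replicate 2 was above replicate 1 in 5 of 5 for Apex1, Parp1 and Tet2, while Dnmt1 and Tet1 were split 2 against 3. In the newly submitted arrays, whose numbers do not pair them, Dnmt1 was higher in replicate 2 in 10 of 11 groups and Uhrf1 in 7 of 11.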
